A study of Rattus norvegicus with 4 samples.

Results

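The enzymes described here carry out the steps that are particular to glucose synthesis (gluconeogenesis) and to the building and breakdown of glycogen. They are Pc, Pck1, Pck2, Fbp1, Fbp2 and G6pc on the gluconeogenic side and Gys1, Gys2, Gbe1 and Pygl on the glycogen side. The array measured all 10 of these genes with 12 probes, out of 26485 genes and 30367 probes. A probe was taken when its gene symbol, or the older names G6pc1 and Pcx for G6pc and Pc, matched this list. Male weanling Sprague-Dawley rats ate purified diets with 5 ppm iron (iron-deficient, FeD), 35 ppm iron as the sample labels give it (iron-adequate, FeA) or 20275 ppm iron (iron-overloaded, FeO) for 3 weeks. The FeO diet carried carbonyl iron, the FeA diet ferric citrate and the FeD diet no added iron; all were enriched in sucrose, and the rats were fasted overnight before the pancreas was taken. Pancreatic RNA of 6 rats was combined into 1 pool per diet. Each of the FeD and FeO pools was set against FeA on 2 arrays of opposite dye orientation (Cy5 and Cy3). Both arrays of a comparison therefore held the same pair of pools and counted as 1 replicate, so no test of the diets was possible and the SDs below describe technical error (hybridisation and dye), not variation among rats.

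Gluconeogenesis runs from pyruvate and similar precursors towards glucose, mostly in liver and kidney and to some extent in the small intestine. It uses the reversible enzymes of glycolysis and replaces the irreversible ones with its own: pyruvate carboxylase and phosphoenolpyruvate carboxykinase at the start, fructose-1,6-bisphosphatase in the middle and glucose-6-phosphatase at the end. The early enzymes have other uses as well, since pyruvate carboxylase refills the citric acid cycle in islets and adipocytes, and phosphoenolpyruvate carboxykinase feeds the making of glycerol 3-phosphate for triglycerides in fat (glyceroneogenesis). Glycogen is built by glycogen synthase with the branching enzyme and is degraded by phosphorylase. The pancreas regulates blood glucose through its hormones and is not an organ of net glucose release.

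Values are log2 ratios of a diet over FeA, taken within an array after background correction and loess normalization and averaged over the 2 arrays of a comparison. A channel is called well above background when the scanner software marks more than 50% of a probe's spots so. A probe passed when it was well above background on both arrays in at least 1 of the 2 diets, and a gene's value is the mean of its probes that passed. A gene is called higher or lower here when its mean log2 ratio was at least 1 in size with the same sign on both arrays, which is a rule of size and not a test. Over the spots of a channel, the median signal was 115 to 222.5 units and the median of the background around them 50 to 87, and 61.9% to 71.5% of spots were well above background. The tissue carried its defining transcripts: all 14 acinar markers on the array, such as Amy2a3, Ctrb1 and Pnlip, were well above background on all 4 arrays in FeA, as were 12 of 14 islet markers with a probe.

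In FeO pancreas, 3 of the 10 enzymes were called higher than in FeA pancreas: Pck1, Gys2 and Pc, at 2.93-fold, 2.46-fold and 2.32-fold. Among all 16425 genes that passed in this comparison, 100 were called higher, which is 0.609%, and 77 were called lower, which is 0.469%. None of the 10 enzymes was called lower by the mean of its probes, but G6pc was when only probes well above background in both diets counted, which left 1 of its 2 probes. Ordered from the highest ratio of the 16425 genes, Pck1 stood at place 33, Gys2 at place 49 and Pc at place 58. Pck2, Fbp1, Fbp2 and Gys1 lay between -0.30 and 0.31. Pygl and Gbe1 passed only through the FeO pool, FeA being well above background on 0 and 1 of the 2 arrays. Pc was short of the size on array 1 alone, at 0.77. The median over the 10 enzymes was 0.24, beside 0.01 over all genes, but it was 0.09 over the 8 that were well above background in both diets.

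In FeD pancreas, 0 of the 9 enzymes that passed were called in either direction. Over all 15727 genes that passed, 18 (0.114%) were called higher and 38 (0.242%) lower, a balance that turned on array 2 alone (81 higher and 38 lower) and at a size of 0.5 (269 and 147). The members ranged from -0.44 (Pck2) to 0.18 (Pc), with a median of -0.04 beside 0.01 over all genes. The sign was opposite on the swapped arrays for 5 of the 9 members in FeD and for 1 of the 10 in FeO. Pygl did not pass in FeD, because neither pool was well above background on both arrays. The FeD and FeO comparisons share the FeA pool, so their values are given side by side and are not independent.

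**Figure D1:**
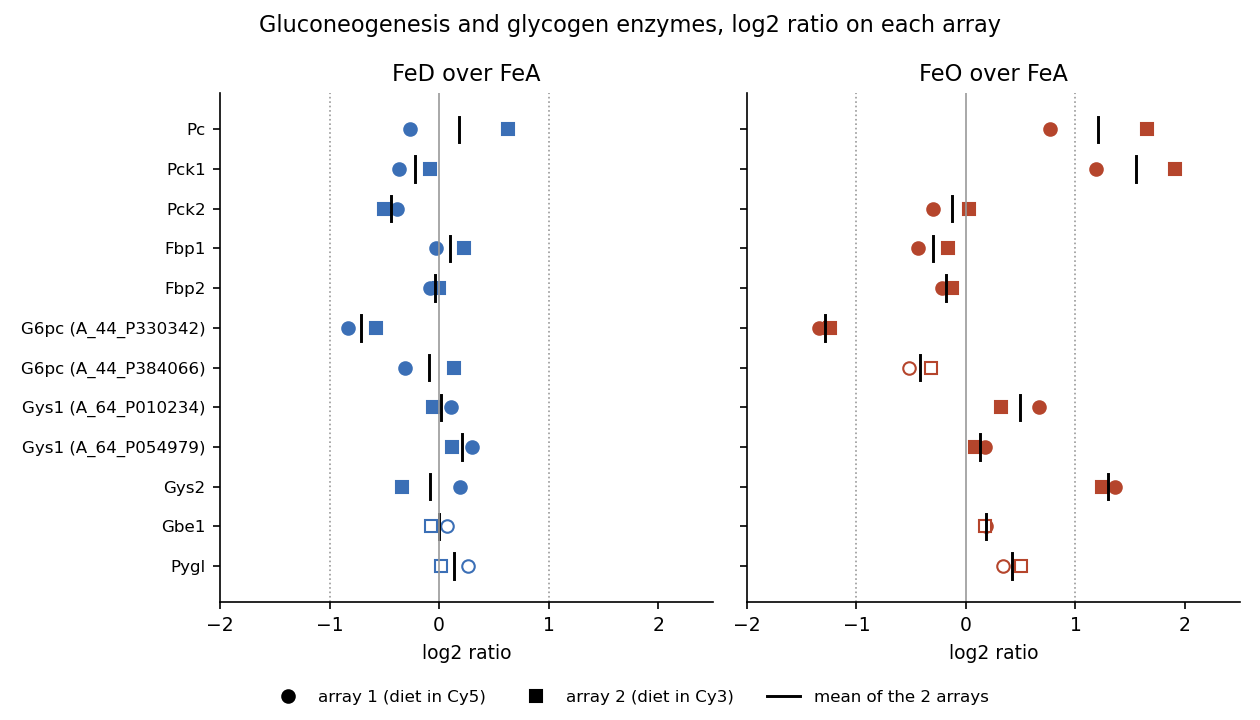
Log2 ratio of FeD over FeA (left) and FeO over FeA (right) for each of the 12 probes, with array 1 as circles, array 2 as squares and the mean as a bar; open symbols mark probes that were not well above background in both diets on both arrays, and dotted lines mark ratios of 1 in size. Pck1, Gys2 and Pc lie at 1.55, 1.30 and 1.21 in FeO, and 1 probe of G6pc lies at -1.29.

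**Figure D2:**
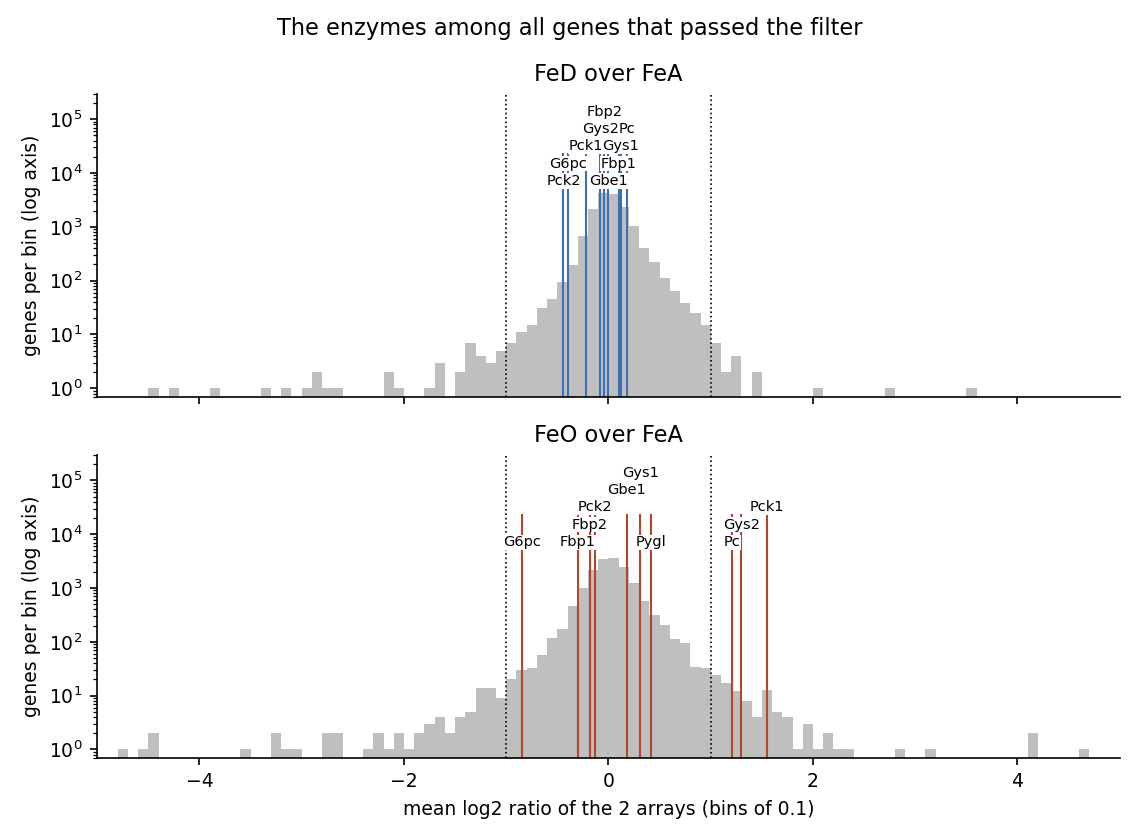
Number of genes (log axis) by mean log2 ratio in bins of 0.1, for the 15727 genes that passed in FeD over FeA and the 16425 in FeO over FeA, with the enzymes as coloured lines and ratios of 1 in size as dotted lines. In FeD the enzymes lie between -0.44 and 0.18, with Pck2 and G6pc below the 5th percentile of all genes (-0.23), and in FeO 3 of them lie past 1.

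Pyruvate carboxylase (Pc) converts pyruvate to oxaloacetate in the mitochondria and opens the gluconeogenic route. Its uncorrected spot signal in FeO was 2066 in Cy5 and 1639 in Cy3, against 865.5 and 591 in FeA in the same dyes. In FeD it was 1060 in Cy5 and 578 in Cy3, against 730.5 and 632 in FeA. So FeO was brighter than FeA in both dyes, whereas FeD was brighter in Cy5 and dimmer in Cy3. After normalization the FeO ratio was 0.77 on array 1 and 1.65 on array 2 (mean 1.21 ± 0.62, SD over 2 arrays), and the FeD ratio was -0.27 and 0.63 (mean 0.18 ± 0.64). The gap between the swapped arrays was alike in both comparisons, 0.88 in FeO and 0.90 in FeD. With FeO array 1 alone, Pc fell short of the size at 0.77.

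The next step, from oxaloacetate to phosphoenolpyruvate, is catalysed by phosphoenolpyruvate carboxykinase in a cytosolic form (Pck1) and a mitochondrial form (Pck2). Pck1 transcription is known to respond to glucagon through cAMP, to glucocorticoids and to insulin. Its promoter is shown because the gene had the highest mean ratio of the family in FeO as reported. Gys2 stood above it on FeO array 1 alone (1.36 against 1.19). With processed signals Pygl did (1.91 against 1.82), although it was not well above background in FeA. The 250 bases before its start are from RefSeq (chr3:182348322-182348571, plus strand, build GRCr8), with the letters ACGTCA (core of the cAMP response element) and AGGTCA (nuclear receptor half-site) in capitals, 91 and 144 bases before the start:
Pck1: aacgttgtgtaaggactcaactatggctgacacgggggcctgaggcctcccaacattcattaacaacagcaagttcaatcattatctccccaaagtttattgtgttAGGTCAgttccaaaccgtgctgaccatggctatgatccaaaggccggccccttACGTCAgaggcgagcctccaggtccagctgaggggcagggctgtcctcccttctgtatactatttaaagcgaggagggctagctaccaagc

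The Pck1 spot signal in FeO was 953 in Cy5 and 622.5 in Cy3, against 286 and 216 in FeA in the same dyes. In FeD it was 340 in Cy5 and 170 in Cy3, against 316 and 222 in FeA. FeO was thus the brighter pool in both dyes, while FeD and FeA were close. The FeO ratio was 1.19 and 1.91 on the 2 arrays (mean 1.55 ± 0.50), and the FeD ratio was -0.37 and -0.08 (mean -0.22 ± 0.20). On the scale of log2 channel signals normalized between arrays, the FeO pool gave 9.37 and 9.63, above all 4 values of the FeA pool (7.72 to 8.17), and the FeD pool gave 7.63 and 7.79, which overlapped FeA. In bulk tissue, a change in the number of cells of a type and a change in the RNA per cell cannot be told apart, which holds for this and every other value here.

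Pck2, the mitochondrial form, did not follow Pck1. Its FeO ratio was -0.30 and 0.03 (mean -0.13 ± 0.23) and its FeD ratio -0.38 and -0.50 (mean -0.44 ± 0.09). Pck2 had the lowest mean of the family in FeD as reported, just below G6pc at -0.40, but G6pc was the lower with its brightest probe (-0.71), processed signals (-0.75), an offset of 0 (-0.50) or array 1 alone (-0.57). Its FeD signals on the normalized log2 scale, 12.22 and 12.27, lay below the FeA range of 12.51 to 12.88, whereas FeO (12.54 and 12.58) lay within that range.

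Fructose-1,6-bisphosphatase removes a phosphate from fructose 1,6-bisphosphate and has a liver type (Fbp1) and a muscle type (Fbp2). Neither was called in either comparison. Fbp1 was at -0.44 and -0.16 in FeO (mean -0.30 ± 0.20) and at -0.03 and 0.23 in FeD (mean 0.10 ± 0.19). On the normalized scale both FeO signals of Fbp1 were 11.49, a little below the lowest of the 4 FeA signals (11.60). Fbp2 was at -0.22 and -0.13 in FeO (mean -0.18 ± 0.07) and at -0.08 and 0.00 in FeD (mean -0.04 ± 0.06), with overlapping signals in all 3 pools.

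Glucose-6-phosphatase (G6pc) releases free glucose in the last step of the pathway and is best known from liver, kidney and intestinal epithelium. It had the lowest ratio of the family in FeO. Its promoter is shown for comparison with Pck1, as the member at the other end of the range; the 250 bases before its start (chr10:86807409-86807658, plus strand, build GRCr8, RefSeq) held CCAAT 217 bases, the nuclear receptor half-site 66 bases (as its reverse complement) and TATAAA 41 bases before the start, all in capitals:
G6pc: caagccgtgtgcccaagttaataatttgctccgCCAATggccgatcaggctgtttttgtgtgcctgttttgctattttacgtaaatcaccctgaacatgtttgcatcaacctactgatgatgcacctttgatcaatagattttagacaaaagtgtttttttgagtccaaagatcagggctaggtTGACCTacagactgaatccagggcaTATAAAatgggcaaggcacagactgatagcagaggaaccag

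The 2 probes for G6pc, which match the same transcript, differed in size. Probe A_44_P330342 was well above background in all pools, with FeO signals of 324 in Cy5 and 170.5 in Cy3 against 589.5 and 393 in FeA. Its ratio was -1.34 and -1.24 in FeO (mean -1.29 ± 0.07) and -0.83 and -0.58 in FeD (mean -0.71 ± 0.18). By this probe G6pc was 2.44-fold lower in FeO and 1.63-fold lower in FeD, and the normalized signals of FeD (8.28 and 8.36) and of FeO (7.68 and 7.70) both lay below the 4 of FeA (8.93 to 9.11). Probe A_44_P384066 was dim, and neither FeO signal was well above background. Its FeO ratio was -0.52 and -0.32 (mean -0.42), and the size of that value is not fixed. In FeD its ratio was -0.31 and 0.14. As the mean of both probes G6pc stood at -0.40 in FeD. In FeO that mean, -0.85, draws on the probe that was not well above background in FeO. With the brightest probe, any probe or only probes well above background in both diets G6pc was called lower.

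**Figure D3:**
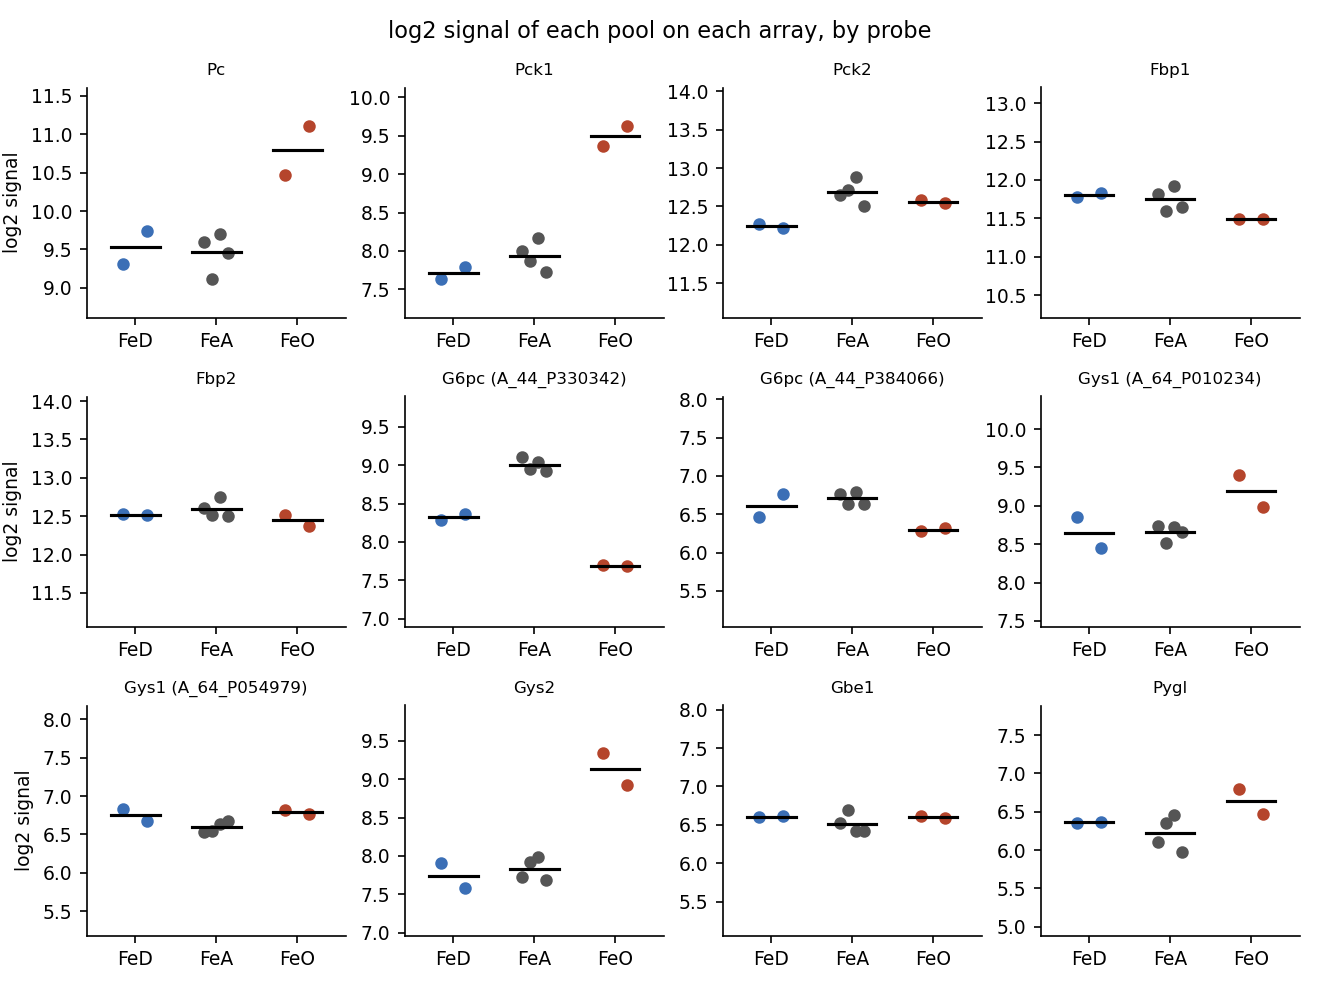
Log2 signal of each pool on each array after loess and normalization between arrays, by probe, with 2 points for FeD, 4 for FeA, 2 for FeO and the mean as a bar; every panel spans 3 log2 units. FeO lies above all 4 FeA points for Pck1, Pc, Gys2, Pygl and both Gys1 probes and below them for Fbp1 and both G6pc probes. For Pygl this is 6.47 against 6.46, with FeA not well above background on any array. Points of a pool are repeat readings of the same RNA. The share of all probes on the array that lie apart in this way was not computed.

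Glycogen synthase adds glucose units to the chain and exists as the liver type (Gys2) and the form found in muscle and most other tissues (Gys1). Gys2 was called higher in FeO, beside Pck1 and Pc. Its promoter is shown beside that of Pck1, as another member called higher; the 250 bases before its start (chr4:177137237-177137486, minus strand, build GRCr8, RefSeq) held AGGTCA, in capitals, 80 bases before the start:
Gys2: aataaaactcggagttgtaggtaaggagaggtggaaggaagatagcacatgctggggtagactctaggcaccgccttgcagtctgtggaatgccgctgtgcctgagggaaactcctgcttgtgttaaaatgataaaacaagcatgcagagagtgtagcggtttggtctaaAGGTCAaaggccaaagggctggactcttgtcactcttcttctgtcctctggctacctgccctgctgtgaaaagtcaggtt

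The Gys2 spot signal in FeO was 932.5 in Cy5 and 384 in Cy3, against 266.5 and 188.5 in FeA. Its FeO ratio was nearly equal on the swapped arrays, 1.36 and 1.24 (mean 1.30 ± 0.08). In FeD the ratio was 0.19 and -0.34 (mean -0.08 ± 0.37). FeO was the brighter pool in both dyes, and the normalized signals of FeD and FeA overlapped (7.58 and 7.91 against 7.68 to 7.99).

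Gys1 had 2 probes. Probe A_64_P010234 gave 0.67 and 0.32 in FeO (mean 0.49 ± 0.25) and 0.11 and -0.06 in FeD (mean 0.02 ± 0.12). Probe A_64_P054979, which was dimmer, gave 0.17 and 0.08 in FeO (mean 0.13 ± 0.06) and 0.30 and 0.12 in FeD (mean 0.21 ± 0.12). The normalized FeO signals lay above those of FeA for both probes, at 8.98 and 9.40 against 8.51 to 8.74 and at 6.76 and 6.82 against 6.53 to 6.67. As a gene, Gys1 was at 0.31 in FeO and 0.12 in FeD, in neither case past the size.

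The branching enzyme Gbe1 and liver-type phosphorylase Pygl, which cleaves glucose units from glycogen, were near the limit of detection. Gbe1 was at 0.18 and 0.17 in FeO, where FeA was well above background on 1 of the 2 arrays, so that it passed only through FeO, and its mean ranged from 0.08 to 0.48 under the alternatives. In FeD it was at 0.07 and -0.07, with FeD well above background on 1 array. Pygl was not well above background in FeA on any of the 4 arrays. In FeO it was detected on both arrays and passed only because of that. Set against the floor described below, FeO was 1.27-fold higher than FeA, but the size is not fixed. The Pygl mean of 0.42 was 0.23 without background subtraction and 1.91 with processed signals.

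Pck1, Pc and Gys2 are all used by adipocytes, among other cells, and a list of 24 adipocyte genes was followed for this reason. In FeO, 21 of the 22 genes with a probe had a value; 11 of them were called higher, 0 were called lower and all 21 had a positive mean, with a median of 1.32. Cfd (adipsin) was at 2.20 and 2.41, Car3 at 2.04 and 2.25, Adipoq (adiponectin) at 1.97 and 2.17, and Pparg, the regulator of fat cell differentiation, at 1.60 and 1.52. In FeD, 0 of 21 were called and the median was -0.06. Scd was left out in FeO because its spot was marked as an outlier on 1 array, Plin1 was not well above background in FeA on either array of the FeO comparison, and leptin (Lep) was at -0.11 and 0.31 in FeO.

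The summed normalized signal of the adipocyte list over 23 probes was 53900 and 53500 in FeO, against 18400 and 17000 in FeA on the same arrays. In FeD it was 15600 and 14700, against 17600 and 15400 in FeA. FeO was therefore apart from both other pools, and the brightest gene of the list was Cfd. Of the 24 genes, 21 were well above background in FeA on all 4 arrays, and 3 also stand on another list (Gpd1, Slc2a4 and Cebpa). The part of adipocyte RNA in the FeO values of Pck1, Pc and Gys2 was not tested.

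A list of 16 intestinal epithelium genes was followed beside G6pc. Of 13 genes with a value, 7 were called lower and 0 higher in FeD (median -1.16), and 7 were called lower and 0 higher in FeO (median -1.43). Some of these passed only through FeA, the pool in which they were high, Fabp2 and Cdh17 among them. With only probes well above background in both diets, 5 of 9 were called lower in FeD and 5 of 10 in FeO. With the brightest probe of each gene, 6 of 13 were called lower in either comparison. Alpi, which has 2 probes, was then at -0.34 in FeD and -0.29 in FeO, against -1.37 and -1.43 as reported. Tff3, a peptide of goblet cells, was at -1.95 and -2.25 in FeD and at -2.14 and -2.62 in FeO. Lgals4 was at -2.21 and -2.14 in FeD and at -3.77 and -3.41 in FeO, where not every signal behind it was well above background. The size of its FeO value is therefore not fixed. The mean of -3.59 was -2.89 without background subtraction, -4.68 with an offset of 0 and -5.33 with processed signals. Fabp2, a fatty acid binding protein, was not well above background in FeD or FeO on either array. Set against the floor described below, FeA was 6.76-fold above FeD and 6.32-fold above FeO. These sizes are not fixed either. The Fabp2 means of -2.78 in FeD and -2.69 in FeO were -2.06 and -1.94 without background subtraction. With processed signals they were -5.98 and -6.96.

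The summed signal of the intestinal list over 21 probes was 5750 and 6610 in FeD against 10600 and 11300 in FeA, and 4880 and 5800 in FeO against 10300 and 11100 in FeA. The brightest probe of the list was that of Cdx1, at 0.16 in FeD and 0.13 in FeO. The transporters Slc5a1 and Slc15a1 passed in neither comparison, 13 of the genes were well above background in FeA on all 4 arrays, and Lgals4 and Fabp2 are genes the study itself singled out on these arrays. The part of intestinal RNA in the values of G6pc was not tested. Liver is another tissue rich in G6pc, Pck1 and Gys2 transcripts, and 9 of the 16 on a hepatocyte list did not pass in FeO, among them Fga, Fgb, Apoa2, Tat, Cps1 and Tdo2. Of the 7 that passed in FeO, 0 were called; albumin (Alb) was at 0.68 and 0.56, Apob at -0.73 and -0.70, and Hp, which was dim in part of the channels, at 0.67 and 0.31. Fgg was at 0.67 and 0.89 in FeO, with FeA not well above background on either array. The FeO means of Hp and Fgg were past the size with an offset of 0 (1.13 and 1.56) and with processed signals (1.09 and 2.73). Without background subtraction they were 0.23 and 0.47. The part of hepatocyte RNA in the values of the enzymes was not tested. The summed hepatocyte signal was 3200 and 3120 in FeO against 3230 and 3040 in FeA, and 3260 and 3020 in FeD against 3240 and 3170 in FeA, with Serpina1 as the brightest gene.

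**Figure D4:**
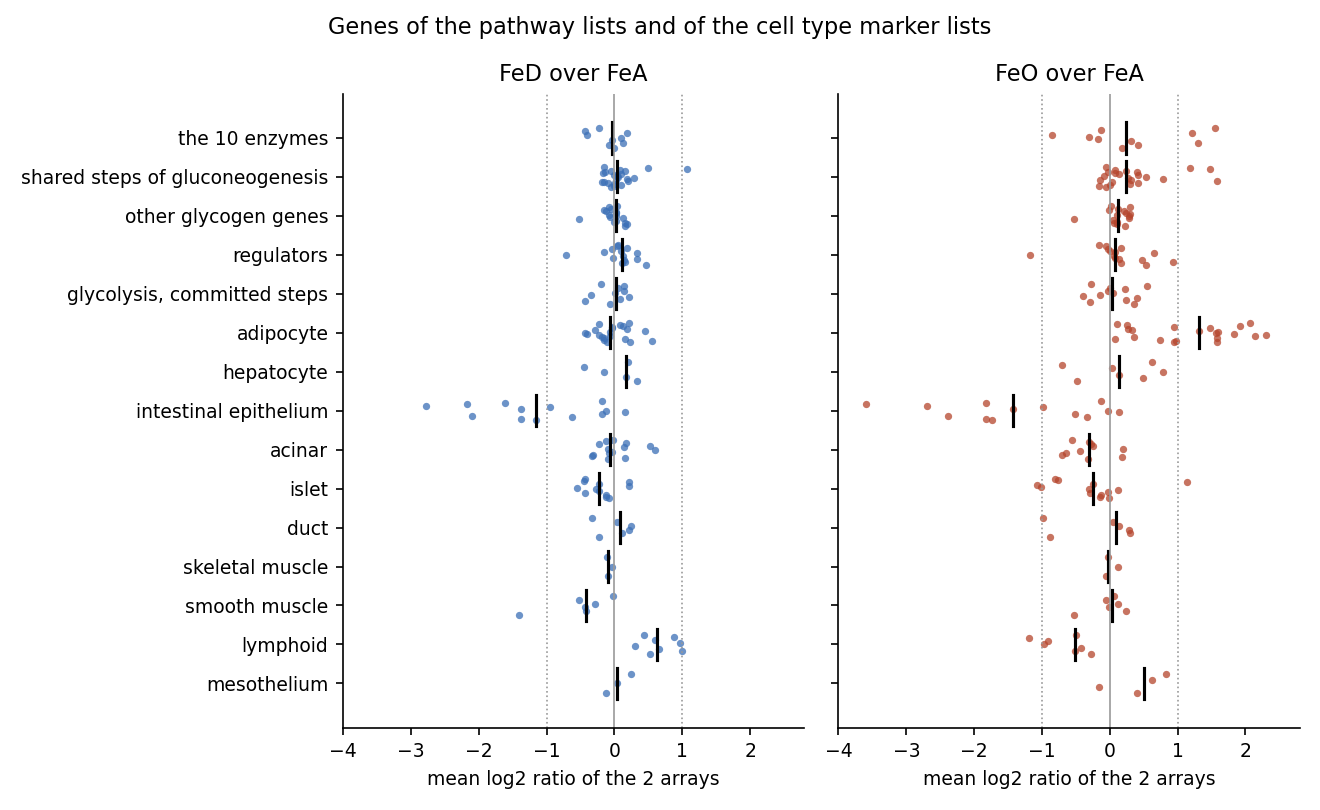
Mean log2 ratio of every gene that passed, by list, in FeD over FeA (left) and FeO over FeA (right), with the median of each list as a bar and ratios of 1 in size as dotted lines. The adipocyte list has a median of 1.32 in FeO and -0.06 in FeD, and the intestinal list has medians of -1.43 and -1.16.

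A list of 25 genes held the reversible steps that gluconeogenesis shares with glycolysis and other genes around the pathway. The others were lactate and malate dehydrogenases, transaminases, transporters, the glycerol enzymes Gk and Gpd1, and the phosphatases G6pc2 and G6pc3. In FeO, 3 of the 23 with a value were called higher and 0 lower (median 0.24), and in FeD 1 of 24 was called higher and 0 lower (median 0.03). None of the shared enzymes from enolase (Eno1) to Gpi was among those called. The gene called in both was Gpt, alanine aminotransferase, which makes pyruvate from alanine; it was at 0.82 and 1.32 in FeD, short of the size on array 1 alone, and at 1.22 and 1.74 in FeO. Gpd1, the cytosolic glycerol 3-phosphate dehydrogenase, was at 1.30 and 1.86 in FeO and at -0.43 and 0.04 in FeD. Ldhb, a lactate dehydrogenase subunit, was at 1.06 and 1.30 in FeO and at 0.30 and 0.70 in FeD. Aldoa, an aldolase, came next without a call, at 0.36 and 1.23 in FeO. The glucose-6-phosphate transporter Slc37a4, which works with G6pc, was at -0.01 and -0.31 in FeO, and the widely expressed phosphatase G6pc3 was at -0.17 and 0.06.

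Of the other 22 glycogen genes, 0 were called among the 17 with a value in FeD and 0 among the 16 in FeO, with medians of 0.02 and 0.12. The most extreme was Ppp1r3a, a subunit that targets a phosphatase to glycogen, at -0.61 and -0.43 in FeD and at -0.56 and -0.50 in FeO. With the scanner software's processed signals Ppp1r3a was past the size in FeD, at -1.06, and with no filter it was at -0.27. Ugp2, which makes UDP-glucose for glycogen synthase, was at 0.60 and 0.00 in FeO, and the muscle phosphorylase Pygm was at 0.37 and 0.23. The high FeO value of Gys2 was thus not shared by the other glycogen genes on this list.

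Among 19 regulators of gluconeogenesis, 1 of 15 with a value was called in FeO and 0 in FeD. That gene was Nr0b2, the small heterodimer partner, a repressor of gluconeogenic genes in liver. It was at -1.39 and -0.97 in FeO, so that array 2 alone was short of the size, and at -0.79 and -0.62 in FeD. Pfkfb1, whose product sets the level of fructose 2,6-bisphosphate, was at 1.22 and 0.63 in FeO, where not both pools were well above background on both arrays, Cebpb was at 0.52 and 0.78, and Pfkfb3 was at 0.62 and 0.46. The FeO mean of Pfkfb1, 0.93, was 1.72 with an offset of 0 and 2.47 with processed signals. Ppargc1a, a coactivator of Pck1 and G6pc in liver, did not pass in either comparison. Among genes for glucose uptake and the committed steps of glycolysis, 0 of the 10 with a value in FeD and 0 of the 12 in FeO were called, with a median of 0.03 in both. Hk1 was at 0.65 and 0.45 in FeO, and the glucose transporter Slc2a2 was at -0.46 and -0.40 in FeD. Pyruvate kinase Pklr, dim in part of the channels, was at -0.10 and -0.60 in FeD and at -0.34 and -0.44 in FeO, and with processed signals it was past the size at -1.51 and -1.23.

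For each enzyme called in FeO, the genes with the nearest pattern over the 4 arrays were sought by Euclidean distance among 13951 genes well above background in both channels of all 4 arrays. Pck1 was nearest to Gpd1 (distance 0.17), followed by Retsat (0.28) and Mgst1 (0.32). Gys2 was nearest to Ccdc80 (0.33), Aoc3 (0.34) and Pnpla2 (0.37). Pc was nearest to Lgals1 (0.36), LOC313641 (0.39) and Lrp1 (0.41). The first neighbours of Pck1, Gys2 and Pc had FeO means of 1.58, 1.11 and 1.28 and FeD means of -0.19, -0.13 and 0.13. Gpd1 and Pnpla2 belong to the adipocyte list.

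Promoters were matched by symbol for 8 of the 10 enzymes, all but Pc and Fbp2. The letters ACGTCA, on either strand, occurred in the 250 bases before the start of Pck1 alone among the 8, and in 6.95% of all 33469 promoters in the table. AGGTCA occurred in Pck1, Gys2 and G6pc, and in 14.1% of all promoters. CCAAT occurred in Fbp1, G6pc, Gys1 and Pck2 (34.0% of all promoters), GCGTG (core of the hypoxia response element) in Fbp1, Gys1, Pck2 and Pygl (25.9%), TATAAA in G6pc (12.9%) and the E-box CACGTG in none of the 8 (5.59%). The matches in the printed promoters do not overlap. A match describes the letters of this window and does not show that a factor binds there.

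**Figure D5:**
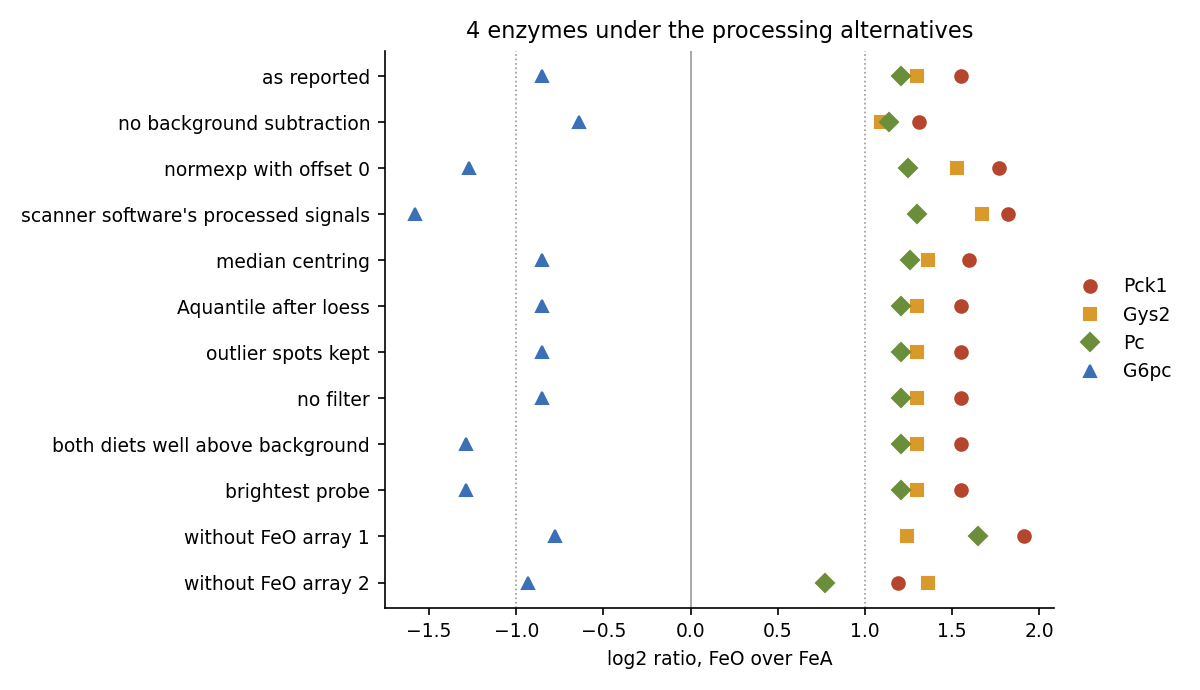
Log2 ratio of FeO over FeA for Pck1, Gys2, Pc and G6pc as reported and under 11 processing alternatives, with ratios of 1 in size as dotted lines. Pck1 and Gys2 stay above 1 under all 11, Pc is at 0.77 on array 1 alone, and G6pc, as the mean of the probes that passed, ranges from -1.58 to -0.64.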

How the data were processed

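Median spot and background intensity values were deposited by the authors as Agilent Feature Extraction 10.1.1.1 output, uncorrected per the file headers. The deposited log10 ratios of red over green processed signal, per the file headers background corrected and dye normalized, were used as an alternative only. The authors' deposited tables also hold fold changes, p-values and q-values of each diet over FeA, which were not used; other columns of these tables served only to name probes (gene symbol text). Ratios were computed with limma 3.58.1 in R 4.3.3: normexp with an offset of 50, removal of control and outlier spots (722, 938, 764 and 735 per array), loess within arrays, averaging of spots, and turning of the swapped array. All 4 arrays come from 1 slide and 1 scan. Of the probe names, 18004 came through RefSeq accessions, 4945 through the authors' tables and 7418 from the array itself. The folds given for Pygl and Fabp2 set the brighter pool's mean against a floored signal of the dimmer pool. Per array this was its own signal or, if higher, the lowest one among probes well above background, after loess and Aquantile. These folds depend on the background correction and are not lower limits. The ratio step in R, with the rule of size and sign, was tested on simulated data. Later steps ran under Python 3.11.15 (scipy 1.17.1, numpy 2.4.6, pandas 2.3.3, matplotlib 3.10.9). No test of the diets was made; the methods' t-test and limma's moderated test, which compare the pools by technical error, were run as alternatives, as were other background corrections, normalizations, filters, sizes, probe rules and each array alone. Besides the members, genes named from the 14 lists are those called in either comparison and the most extreme, up to 4 per list, and any gene outside that rule was chosen after its values were seen. The members and lists were chosen with earlier results of these data known.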

Additional observations from a re-analysis of the deposited data

How the results depend on the processing

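In FeD, 0 enzymes were called under all 17 alternatives, of which 5 (Aquantile, the size of 2 and the tests added to the size) could give no other count. In FeO, 3 were called as reported, and Pck1, Gys2 and Pc were among those called under every alternative to background correction, normalization, filter and probe choice. The count was 5 with a normexp offset of 0 and 5 with the scanner software's processed signals, where Pygl, which was not well above background in FeA, was added as higher and G6pc as lower. It was 0 at a log2 size of 2 and 0 after Benjamini-Hochberg adjustment of the methods' t-test; the unadjusted form and limma's moderated test with adjustment, each added to the size, left Pck1 and Gys2. With either array left out it was 2 to 3, Pc being lost without array 2. The median over the enzymes in FeD was -0.03 without background subtraction, -0.05 with an offset of 0, -0.07 with processed signals, -0.07 with median centring, -0.02 with no filter, -0.06 with both diets well above background and -0.07 to -0.06 on arrays alone. In FeO the median of 0.24 became 0.16 without background subtraction, 0.40 with an offset of 0, 0.40 with processed signals, 0.09 with both diets well above background, 0.30 with the brightest probe and 0.18 to 0.26 on arrays alone. The cause of these shifts was not tested. Of 664 values of 85 named genes under the 3 other background corrections and median centring, 521 moved by less than the SD over arrays and 143 by more, and 0 called values changed sign. Other alternatives are not counted, since Aquantile leaves ratios as they are, filters and probe choices leave most genes as they are, and a single array is by construction less than the SD from the mean of both. Over all genes, the 56 calls in FeD became 144 with an offset of 0, 280 with processed signals (48.9% of them higher, against 32.1% as reported), 16 at a size of 2, 416 at a size of 0.5, 119 without array 1 and 0 after adjustment of the methods' t-test; the 177 in FeO became 375, 634, 29, 874, 333 and 0 in the same order. With limma's moderated test, adjusted, 55 and 133 were left; both tests compare pools by technical error. The balance of the FeD calls turned to mostly higher without array 1 (68.1%) and at a size of 0.5 (64.7%); in FeO, 56.5% were higher as reported, 71.8% without array 1 and 34.5% at a size of 2. Lists were recomputed as an alternative chosen after seeing the data: at a size of 2, 3 of the 11 adipocyte genes in FeO and 3 of the 7 intestinal genes in either comparison were left, 0 after adjustment of the methods' t-test and all 11 and 7 with limma's adjusted test, and at 0.5, 1 adipocyte gene was called in FeD. Dim probes (Pygl, Gbe1 and 1 probe each of G6pc and Gys1) limit what can be read, since the offset of 50 draws the ratios of dim probes towards 0.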

Other observations

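Other cell type lists were followed as well, and no test of a difference between pools was made. All 8 lymphoid markers had positive means in FeD (median 0.63, 0 called), and all 7 with a value had negative means in FeO (median -0.51), where Cd3g was called lower at -1.08 and -1.29; these 2 comparisons share the FeA pool. Among islet markers in FeO, glucagon (Gcg) was called higher with a mean of 1.14, and Ppy and Iapp were called lower with means of -1.08 and -1.02. Ppy was short of the size on array 2 alone (-0.87) and Iapp on array 1 alone (-0.85). The islet median was -0.25 over 13 genes in FeO, and in FeD 0 of 12 were called (median -0.23). Of 6 smooth muscle markers, Actg2 was called lower in FeD at -1.56 and -1.25 (median -0.43), and 0 were called in FeO (median 0.02). No acinar gene was called (medians -0.06 over 14 genes in FeD and -0.31 over 10 in FeO, where 4 were left out because of outlier spots on 1 array), and neither was any duct gene (0.08 and 0.09 over 6), mesothelium gene (0.04 over 3 and 0.51 over 4), hepatocyte gene (0.17 over 5 and 0.14 over 7) or skeletal muscle gene (-0.10 and -0.02 over 3). Among mesothelium genes in FeO, the mean of Wt1 was past the size with an offset of 0 (1.19), processed signals (1.73) and the brightest probe (1.11). Without background subtraction Wt1 was at 0.36, and Lrrn4 was at 1.61 with processed signals. Not every signal behind these 2 genes was well above background. Of 9 skeletal muscle genes, 6 were not well above background in either comparison, among them Acta1 and Ckm.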
